A study of Mus musculus with 9 samples.

Results

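The 6 genes described here encode apolipoproteins or proteins named after them: Apoe, Apoc1, Apoc2, Clu, Apoa1 and Apol6. They were taken from 18193 genes with a probe set of their own on an Affymetrix array, and where a gene had several, the brightest on average was used and the rest served as a check. The probe set was selected on that mean intensity, and the genes were named with earlier results of the same arrays known, in which Apoc1 stood out for its low SJL intensity. Messenger RNA of the central cornea was measured in 3 inbred mouse strains, C57BLKS/J (KS), SJL/J (SJL) and C57Bl/6J (B6), with 3 arrays each. The labels call the KS cornea thin and the SJL cornea thick and give B6 no thickness, so thickness and strain cannot be told apart. All mice were adult males, 4 months old and kept on a diet with 4% fat, and none carried an engineered allele or received an agent in the labels. An array stood for 1 mouse, from which a 2-mm punch of each eye was combined.

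Apolipoproteins coat lipid particles, and they steer them to receptors and enzymes. Apoe is a ligand of the low density lipoprotein receptor family and is made by liver, macrophages and glia. Apoc1 is a small protein that slows the uptake of such particles, and Apoc2 is the cofactor of lipoprotein lipase. Apoe, Apoc1, Apoc4 and Apoc2 lie next to each other in a gene cluster, here on mouse chromosome 7. Clu encodes clusterin, also called apolipoprotein J, a secreted chaperone known for its abundance in corneal epithelium and endothelium. Apoa1 encodes the main protein of high density lipoprotein, and Apol6 belongs to the apolipoprotein L family, whose proteins act inside cells.

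Promoter sequence from RefSeq is shown for the cluster because 1 of its genes with an entry, Apoe, gave strong signal and another, Apoc2, gave signal at the lower end of the scale. The table of the build GRCm38.p6 held entries for 3 of the 6 genes, Apoe with 3 start sites, Apoc2 and Apoa1. The 250 bases before the start are given 5' to 3' on the minus strand, and capitals mark matches to any motif searched. The Apoe windows are those of its most upstream start (chr7:19699189-19699438) and of the next (chr7:19698622-19698871), and the Apoc2 window is chr7:19677942-19678191.
Apoe, first start: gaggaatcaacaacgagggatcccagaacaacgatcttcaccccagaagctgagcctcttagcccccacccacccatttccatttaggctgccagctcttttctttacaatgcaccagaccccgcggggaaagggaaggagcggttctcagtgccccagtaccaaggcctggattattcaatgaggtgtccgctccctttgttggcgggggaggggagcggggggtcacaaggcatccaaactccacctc
Apoe, second start: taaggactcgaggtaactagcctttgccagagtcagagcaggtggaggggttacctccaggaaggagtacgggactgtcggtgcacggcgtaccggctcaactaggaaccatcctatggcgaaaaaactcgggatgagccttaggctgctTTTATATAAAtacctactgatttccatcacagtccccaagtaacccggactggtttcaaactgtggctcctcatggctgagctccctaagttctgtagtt
Apoc2: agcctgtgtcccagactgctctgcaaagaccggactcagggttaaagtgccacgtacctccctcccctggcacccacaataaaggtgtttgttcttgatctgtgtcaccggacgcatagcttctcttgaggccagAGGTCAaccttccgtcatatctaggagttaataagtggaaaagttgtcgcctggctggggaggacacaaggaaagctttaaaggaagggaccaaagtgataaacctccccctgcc
The motifs searched on both strands were TATAAA (the TATA box), CCAAT (the CCAAT box), GGGCGG (the GC box), AGGTCA (the half-site of many nuclear receptors) and a direct repeat of 2 such half-sites with 4 bases between them, which contains the single half-site. The first Apoe window held none of them, the second held TATAAA once on each strand, overlapping, and the Apoc2 window held 1 AGGTCA. Among windows not printed, the third of Apoe and that of Apoa1 held none. That of Apoc4, a cluster gene also at the lower end of the scale, held 1 CCAAT, 1 GGGCGG and 1 AGGTCA. Over 32851 windows of the same length in the table, 12.4% held TATAAA, 33.8% CCAAT, 32.7% GGGCGG, 14% AGGTCA and 0.0152% the direct repeat. The GC content was 57.2% and 51.2% in the Apoe windows and 52.0% in that of Apoc2. These sequences are those of the reference strain, C57BL/6J, and sequence of KS and SJL was not used here.

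Values are probe set intensities on a linear scale, already summarised and scaled by the authors. Over all probe sets 54.6% of the intensities lay below 16, and a level there is read as an upper bound because no detection calls were used. Intensities of different genes come from different probes and are not set against each other. The corneal markers were present in every strain, with Krt12 at 26604 to 28462, Kera at 11724 to 12627 and Col8a2 at 3412 to 3574 as strain means. Of 9 lens genes 7 lay below 16 on all arrays. On KS replicate 3, 13 retina genes summed to 6249 against 310 to 588 on the other 8 arrays. Glul was left out of this sum, and with it the sums were 24011 against 14027 to 19902. B6 replicate 3 had the highest 3' to 5' signal of the Gapdh control, 1.55 on the log2 scale against 0.73 to 1.17 elsewhere. Arrays of a strain correlated at 0.982 to 0.994 over the probe sets tested.

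The members fell into 3 kinds. Apoe and Apoc1 gave strong signal that differed between the strains, Clu gave strong signal at similar levels in all 3, and Apoc2, Apoa1 and Apol6 lay at the lower end of the scale on every array. The 6 genes had 12 probe sets, 1 each for Apoe, Apoc1, Apoc2 and Apol6 and 4 each for Clu and Apoa1. The filter on dim probe sets left 6 of the 12, from Apoe, Apoc1 and Clu, so 3 of the 6 genes were tested. A difference was called at an adjusted p under 0.05 in a limma model over all 22519 probe sets that passed, and log2 differences are on the log2(intensity + 10) scale. Apoe was called in each of the 3 comparisons, Apoc1 between KS and B6, and Clu in none, while the SJL differences of Apoc1 are left without a test. Of all probe sets tested, 15.5% were called between SJL and KS, 5.71% between KS and B6, and 16.0% between SJL and B6. Since Apoc1 was known for its SJL difference and lies beside Apoe, these counts are a description.

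**Figure D1:**
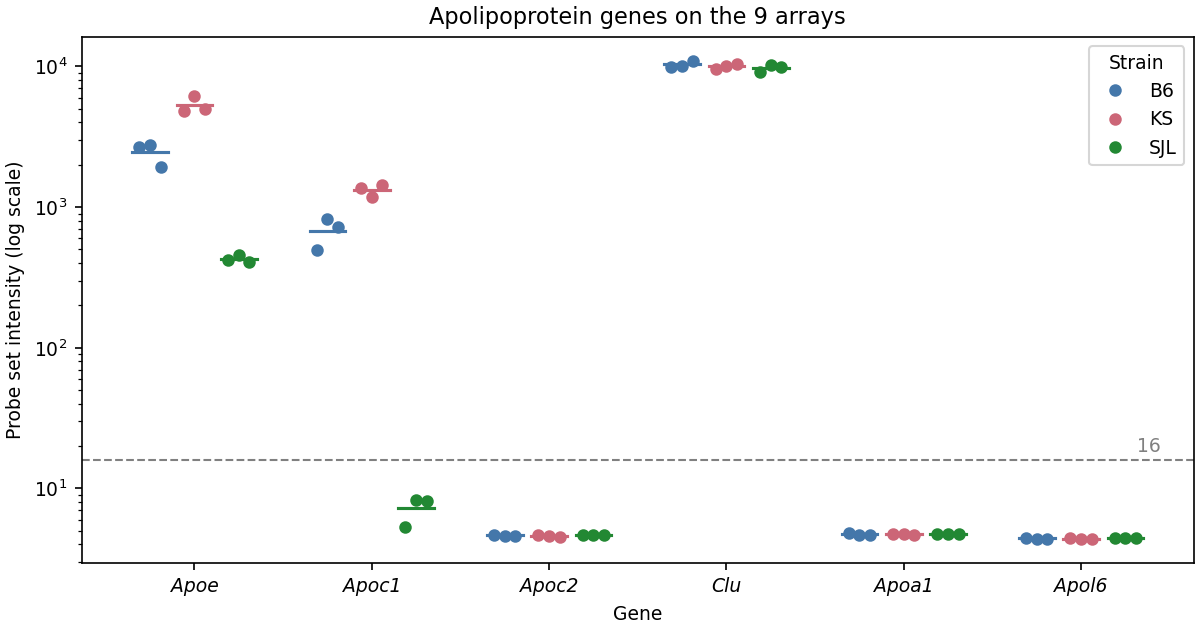
Probe set intensity (log scale) of the 6 genes on each of the 9 arrays, with a point for each array, a bar for the mean of each strain and a dashed line at 16. Apoe and Apoc1 are highest in KS and lowest in SJL, Clu lies between 9184 and 10994 on all arrays, and Apoc2, Apoa1 and Apol6 lie below 5.

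Apoe was highest in KS, lower in B6 and lowest in SJL. The 3 B6 arrays gave 2684, 2764 and 1921. The 3 KS arrays gave 4838, 6147 and 5011. The 3 SJL arrays gave 418, 459 and 408. The strains did not overlap, and the lowest KS array stood above the highest B6 array and the lowest B6 array above the highest SJL array. Non-overlap was common, and held for 35.8% of the probe sets tested between SJL and KS, 28.4% between KS and B6, and 31.8% between SJL and B6.

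As strain means Apoe had 5332 ± 711 in KS, 2456 ± 466 in B6 and 428 ± 27.3 in SJL (SD, n = 3). Against KS the SJL level was 12.1-fold lower, a log2 difference of -3.60 with an interval of -3.96 to -3.24 (95%, limma adjusted p = 1.87e-06). Against B6 it was 5.56-fold lower, at -2.48 with an interval of -2.84 to -2.12 (limma adjusted p = 1.96e-05). KS was 2.18-fold above B6, at 1.13 with an interval of 0.77 to 1.49 (limma adjusted p = 0.0037). In KS against B6, 2.91% of all probe sets tested were called higher, and in SJL 8.52% were called lower than in KS and 8.09% lower than in B6. The 3 comparisons share arrays, so they are not independent of each other.

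The order of Apoe levels did not turn on the arrays that stood apart. KS replicate 3, with the retina transcripts, had an Apoe level between those of the other KS arrays, and without it the difference of KS from B6 was 1.17 (limma adjusted p = 0.0159). B6 replicate 3, with the highest 3' to 5' control signal, had the lowest Apoe level in B6, and without it the difference was 0.96 (limma adjusted p = 0.00528). With any 1 array left out, the Apoe difference of KS from B6 lay between 0.96 and 1.22, that of SJL from KS between -3.67 and -3.49 and that of SJL from B6 between -2.64 and -2.38, called each time.

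Apoc1 followed the same order, with SJL at the lower end of the scale. The 3 B6 arrays gave 492, 821 and 723. The 3 KS arrays gave 1360, 1176 and 1440. The 3 SJL arrays gave 5.31, 8.34 and 8.21, all below 16. The groups did not overlap in any comparison.

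Apoc1 averaged 1326 ± 136 in KS, 679 ± 169 in B6 and 7.29 ± 1.72 in SJL (SD, n = 3). Its difference of SJL from KS was among the largest in earlier results of these arrays, so the differences involving SJL are given with no test. They were -6.27 against KS and -5.29 against B6 on the log2(intensity + 10) scale, and both depend on the pseudocount because the SJL signal is so low. With a pseudocount of 1 they were -7.34 and -6.35, and with 50 they were -4.58 and -3.64. Taking 16 as the most that SJL could hold, Apoc1 was at least 82.5-fold lower than the geometric mean of KS and at least 41.5-fold lower than that of B6. KS was 1.98-fold above B6, at 0.98 with an interval of 0.56 to 1.41 (limma adjusted p = 0.0178). This smaller difference was not called without KS replicate 1 (adjusted p = 0.06), without KS replicate 3 (0.0749), with no filter on dim probe sets (0.075) or in a limma fit to the 6 arrays of KS and B6 (0.0518).

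Apoe and Apoc1 were compared with each other by the difference of their log2 values on each array. The log2 difference between KS and B6 of Apoc1 minus that of Apoe was -0.14 (exact two-sided permutation p = 0.6, n = 3 arrays in each strain). The Benjamini-Hochberg adjusted value over 4 exact tests, this one and 3 between Apoe and Clu, was 0.6. Taken the same way, the value was -2.67 for SJL against KS and -2.81 against B6, given with no test because the Apoc1 level in SJL was known. Both values depend on the pseudocount, because Apoc1 in SJL lay at the lower end of the scale. In SJL against KS, Apoc1 was at -7.34 with a pseudocount of 1 and -4.58 with 50, and Apoe at -3.63 and -3.49. Within a strain the 2 genes did not keep the same order over arrays, since B6 replicate 1 had the lowest Apoc1 but not the lowest Apoe of its strain, and KS replicate 2 the lowest Apoc1 and the highest Apoe.

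Apoc2, at the far end of the cluster, gave 4.55 to 4.68 on the 9 arrays. Apoc4, which lies between Apoc2 and Apoc1 and is of the same family, averaged 4.39 to 4.42 over the strains. Neither passed the filter. With no filter the log2 differences of Apoc2 lay between -0.003 and 0.003. At these levels no strain difference can be read.

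The genes that follow Apoe along chromosome 7 were called in part. The 4 next to it are Tomm40, a subunit of the mitochondrial import pore, Nectin2, an adhesion receptor, Bcam, a laminin receptor, and Cblc, a ubiquitin ligase. Bcam was at 42.4 ± 7.92 in SJL, against 274 ± 14.8 in KS and 264 ± 44.1 in B6 (SD, n = 3). It was called lower in SJL than in KS (-2.45, limma adjusted p = 1.39e-05) and than in B6 (-2.39, limma adjusted p = 1.62e-05), and KS differed from B6 by 0.06 (0.859). Tomm40, between Apoe and Nectin2, differed by 0.01 to 0.26 in the 3 comparisons and Cblc by 0.15 to 0.34, with limma adjusted p of at least 0.154, while a second Cblc probe set was called higher in SJL than in B6 (0.51, 0.0217). Nectin2 was called higher in SJL than in KS by 0.69 (limma adjusted p = 0.0375), with a second probe set at 0.03 (0.954). That Nectin2 call ended when B6 replicate 2 or any array of KS or SJL was left out (adjusted p from 0.0531 to 0.12).

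Of 18 listed genes around the cluster 17 had a probe set and 14 were tested. Against KS, SJL had 1 called higher and 1 lower (6.98% and 8.52% of all probe sets), with a median of 0.03 (0.02 over all genes tested). Against B6, SJL had 1 higher and 2 lower (7.92% and 8.09% of all probe sets), with a median of 0.13 (0.02 over all). The higher one, Clasrp (0.64, limma adjusted p = 0.0429), was called in 1 of the 9 fits with an array left out, that without B6 replicate 3. Between KS and B6 limma called none (5.71% of all probe sets). There 3 of the 14 had an unadjusted p under 0.05 (19.2% of all probe sets), and the median was 0.00 (0.01 over all). Bcl3, a cofactor of NF-kappa-B, was the other gene lower in SJL than in B6, at 36.4 ± 27.5 against 204 ± 110 (-2.22, limma adjusted p = 0.0145, or 0.058 without SJL replicate 3).

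**Figure D2:**
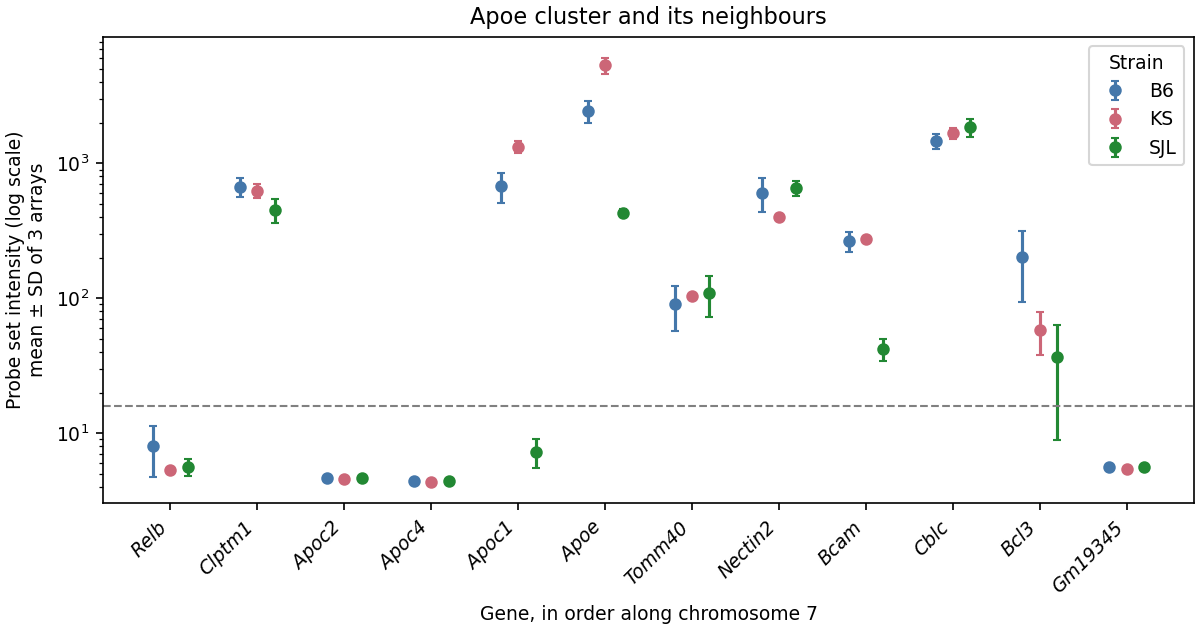
Strain means ± SD (n = 3 arrays) of probe set intensity (log scale) for genes in their order along chromosome 7 around Apoe, leaving out genes with no probe set of their own, with a dashed line at 16. Apoc1, Apoe and Bcam are lower in SJL, Tomm40 and Cblc between or beside them are at similar levels, and Apoc2 and Apoc4 lie below 5 in every strain. Farther out, Bcl3 averages 36.4 in SJL, 58.7 in KS and 204 in B6. Clptm1 averages 452 in SJL, 628 in KS and 671 in B6 and was called in no comparison.

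Clu, away from the cluster on chromosome 14, was at similar levels in the 3 strains. Its 3 B6 arrays gave 9988, 10001 and 10994, the 3 KS arrays 9617, 10004 and 10371, and the 3 SJL arrays 9184, 10179 and 9898. The strains overlapped in every comparison. The means were 9998 ± 377 in KS, 10327 ± 577 in B6 and 9753 ± 513 in SJL (SD, n = 3). SJL differed from KS by -0.04 on the log2 scale, with an interval of -0.23 to 0.16 (limma adjusted p = 0.826). KS differed from B6 by -0.05, with -0.24 to 0.15 (0.818), and SJL from B6 by -0.08, with -0.27 to 0.11 (0.573). The intervals leave room for differences of that size but not for one like that of Apoe.

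The other 3 Clu probe sets averaged 5315 to 8478 over the strains and none was called in any comparison by limma, nor had any of the 4 an unadjusted p under 0.05. The one that departed most, with the lowest mean over the 9 arrays, differed by -0.22 between KS and B6, with an interval of -0.44 to 0.00 (limma adjusted p = 0.268). The log2 difference of Apoe minus that of Clu was -3.56 for SJL against KS, 1.17 for KS against B6 and -2.39 for SJL against B6. The exact two-sided permutation p was 0.1 for each, the smallest possible with n = 3 arrays against 3, and 0.133 after adjustment over the 4 tests.

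Apoa1 gave 4.25 to 4.85 over its 4 probe sets and all 9 arrays. It lies on chromosome 9 beside Apoc3, Apoa4 and Apoa5, which averaged 4.60 to 4.93 over the strains. Apol6 gave 4.38 to 4.46. With no filter neither Apoa1 nor Apol6 differed by more than 0.004 on the log2 scale in any comparison. Of the genes on either side of Apol6 on chromosome 15, Apol7a, of the same family, gave strong signal, with 3438 ± 232 in B6 against 2374 ± 316 in KS and 2624 ± 138 in SJL (SD, n = 3). KS differed from B6 by -0.54 (limma adjusted p = 0.0301), a call that ended without B6 replicate 1 or 3 or KS replicate 2 or 3 (0.089 to 0.105). Rpl8, 1110038F14Rik and Rbfox2 were not called, Mb and Zfp647 did not pass the filter, and Apol9a and Apol7b had no probe set with their symbol alone.

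Other genes of lipoprotein handling were listed from general knowledge in 4 groups. Of 72 genes 57 had a probe set, 23 lay below 16 on every array and 34 were tested. SJL had 4 called higher and 5 lower than KS, where 6.98% and 8.52% of all probe sets were, with a median difference of -0.01. KS had 2 higher and 1 lower than B6 (2.91% and 2.80% of all), with a median of 0.00. SJL had 7 higher and 4 lower than B6 (7.92% and 8.09% of all), with a median of -0.07. Between SJL and KS the counts fell to 1 higher and 2 lower without KS replicate 3, to 2 higher and 2 lower without SJL replicate 3, to 2 higher without KS replicate 1, to 2 lower without KS replicate 2 and to 3 lower without SJL replicate 2. Between SJL and B6 4 were higher without SJL replicate 3. Between KS and B6, 1 was higher without B6 replicate 1 or 2 or KS replicate 2 or 3, and 0 were lower without B6 replicate 1 or 3 or KS replicate 2 or 3, while 2 were lower without B6 replicate 2.

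Among the other apolipoproteins 13 of 18 with a probe set lay below 16 on all arrays, among them Apob, Apoa2 and Apom, and 5 were tested. Apod, a lipocalin that binds small lipids, was at 17712 ± 1050 in SJL, against 12458 ± 1369 in KS and 10628 ± 1113 in B6 (SD, n = 3), and so went opposite to Apoe. It was called higher in SJL than in B6 (0.74, limma adjusted p = 0.00311) and than in KS (0.51, 0.0189), the latter not without SJL replicate 1 (0.0506), KS replicate 3 (0.0547) or KS replicate 1 (0.064). A second, dimmer Apod probe set went the other way, with 560 ± 153 in KS, 393 ± 33.5 in B6 and 4.80 ± 0.435 in SJL. All its SJL arrays lay below 16, which makes SJL at least 34.2-fold lower than KS. This probe set passed the filter through its KS and B6 levels, so the difference is given with no test. The direction of Apod rests on the probe set. Apoe and Apoc1 had 1 probe set each, so no such check was possible for them. Whether strain sequence differences lie under the probes of Apoe and Apoc1 was not tested.

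Apold1, named for its likeness to the apolipoprotein L family and known from vessel endothelium, was lower in SJL, at 34.3 ± 13.1 against 140 ± 46.8 in B6 (-1.76, limma adjusted p = 0.00239) and 85.6 ± 15.2 in KS (-1.13, 0.0205). The call against KS ended without any 1 of KS replicates 2 and 3 and SJL replicates 2 and 3 (0.0661 to 0.0793), and was 0.0529 with the replicate number as a block. Apoo and Apool belong to a complex of the inner mitochondrial membrane. Apoo was called in no comparison, and Apool was higher in SJL than in B6 by 0.41 (limma adjusted p = 0.0466), a call kept with 1 array left out only where that was B6 replicate 2.

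**Figure D3:**
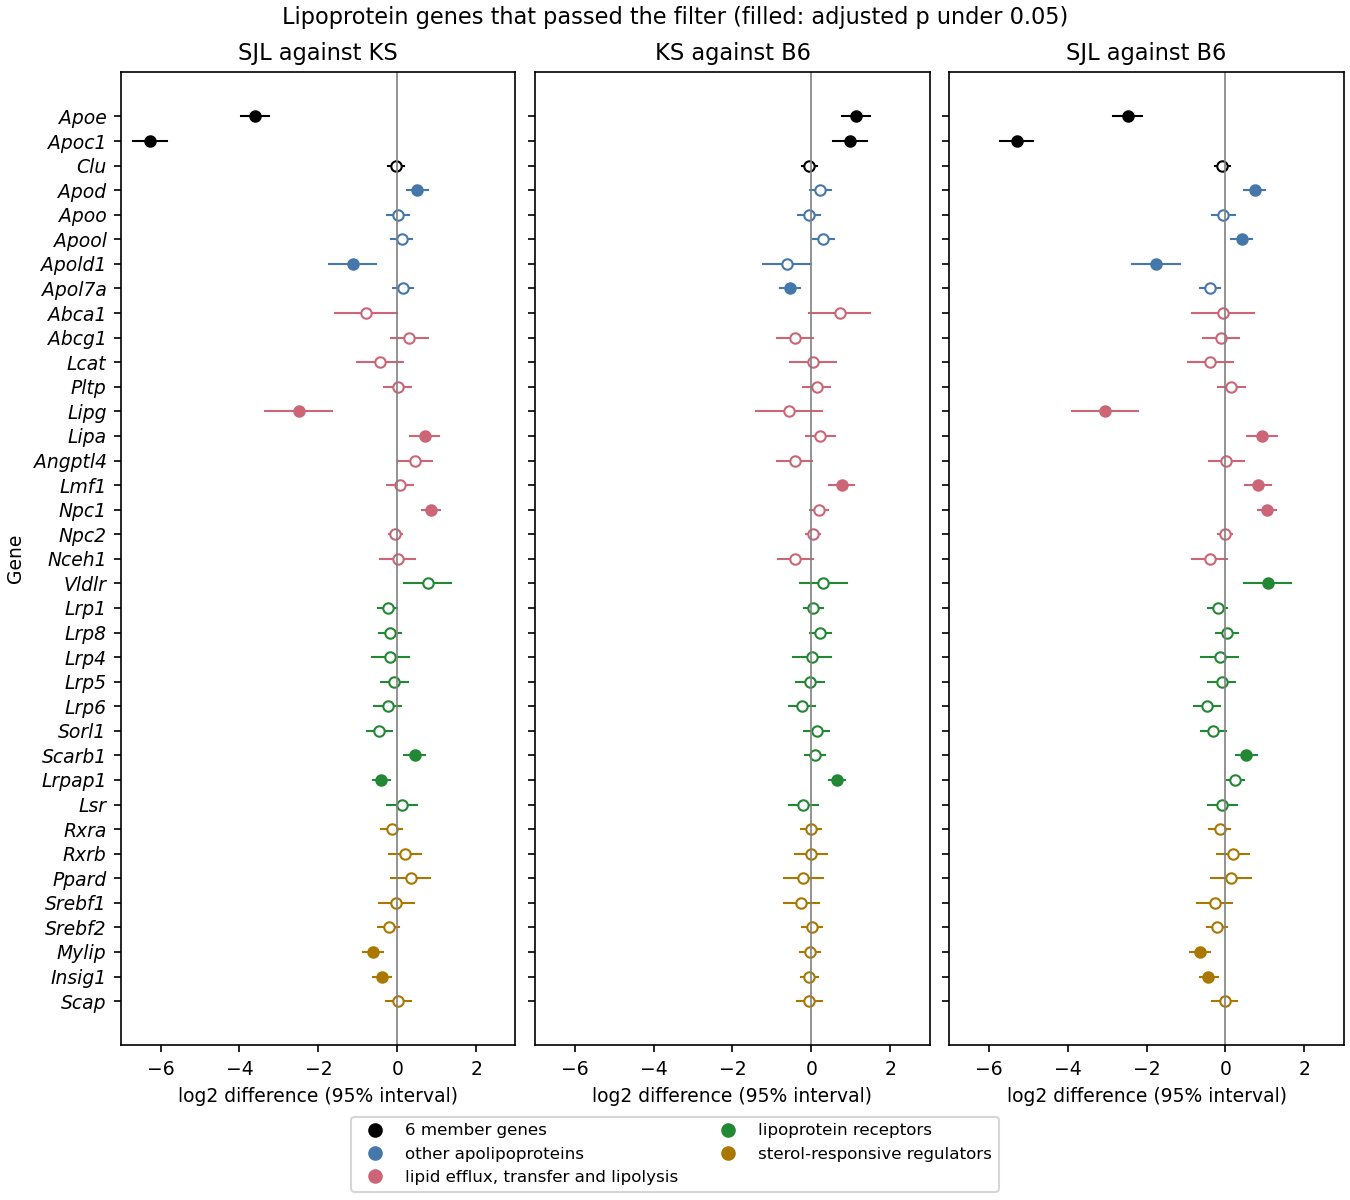
Log2 differences with 95% intervals in the 3 comparisons for the tested genes among the 6 members and the 4 lipoprotein lists, filled where the limma adjusted p was under 0.05. For Apoc1 in the comparisons with SJL, the fill and interval are not read as a test, because its SJL level was known. Apoc1 lies farthest to the left in both comparisons with SJL, followed by Apoe against KS and by Lipg and then Apoe against B6, and Clu lies near 0 in all 3.

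Among 11 tested genes of lipid efflux, transfer and lipolysis, 2 were called higher and 1 lower in SJL than in KS (6.98% and 8.52% of all probe sets). Against B6, SJL had 3 higher and 1 lower (7.92% and 8.09% of all). The higher count against KS was 1 without SJL replicate 3 or either of KS replicates 1 and 3, and the lower count against B6 was 2 without B6 replicate 2. Lipg, endothelial lipase, was at 9.03 ± 2.97 in SJL, 98.5 ± 23.8 in KS and 166 ± 107 in B6, called lower against both (limma adjusted p = 0.00235 and 0.000738). Its SJL arrays all lay below 16, so the test set KS and B6 signal against the lower end of the scale. Read as a bound, Lipg in SJL was at least 6.02-fold lower than in KS and 9.14-fold lower than in B6. The fitted differences, -2.50 and -3.06, went to -3.33 and -3.93 with a pseudocount of 1 and to -1.32 and -1.76 with 50. Npc1, which exports cholesterol from lysosomes, was higher in SJL, at 1268 ± 142 against 696 ± 40.5 in KS (0.85, limma adjusted p = 0.000738) and 606 ± 25.7 in B6 (1.05, 0.000208). Lipa, lysosomal acid lipase, was also higher in SJL than in B6, at 268 ± 36.7 against 137 ± 26.6 (0.93, limma adjusted p = 0.00565), and its other 2 tested probe sets gave 0.67 and 0.43, not called. Lpl, the lipase that Apoc2 activates, lay below 16 on all arrays. Abca1, which loads lipid onto Apoa1 and Apoe, was at 187 ± 46.5, 317 ± 80.9 and 187 ± 80.0 in B6, KS and SJL and was called in no comparison.

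Among 10 tested lipoprotein receptors and their partners, 1 was called higher and 1 lower in SJL than in KS (6.98% and 8.52% of all probe sets). The higher one, Scarb1, was lost without B6 replicate 1, any KS array, or SJL replicate 2 or 3 and under the replicate block, and the lower one, Lrpap1, without KS replicate 2 or 3 or SJL replicate 3. Lrpap1, the chaperone that keeps ligands such as Apoe off their receptors in the secretory pathway, was brightest in KS, at 3491 ± 231 against 2223 ± 170 in B6 and 2634 ± 113 in SJL. It was higher in KS than in B6 by 0.65 (limma adjusted p = 0.00397), and its 3 other probe sets were called higher too, by 0.89 to 1.22. Vldlr, a receptor that binds Apoe, was at 1792 ± 254 in SJL and 860 ± 218 in B6 (1.07, limma adjusted p = 0.0252), a call that ended without any 1 of B6 replicates 2 and 3 and SJL replicates 2 and 3 (0.0537 to 0.0791). None of its 4 other probe sets was called there, with differences from -0.07 to 1.28, and the mean of all gave 0.44 (limma adjusted p = 0.18). Scarb1, the receptor of high density lipoprotein, was at 1191 ± 159 in SJL and 816 ± 45.7 in B6 (0.53, limma adjusted p = 0.0138, or 0.0571 without SJL replicate 3), and its other 2 probe sets gave 0.35 (0.105) and 0.43 (0.0393). Lrp1 was called in no comparison. Sorl1 differed by probe set, with the brightest at -0.45 between SJL and KS (limma adjusted p = 0.0671) and another called higher in SJL than in KS (0.85, 0.0014) and than in B6 (0.79, 0.00201). Cd36, Olr1, Msr1 and Lrp2 lay below 16 on all arrays.

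Among 8 tested sterol-responsive regulators 2 were lower in SJL than in KS and B6 and none was higher. Of all probe sets, 8.52% were called lower and 6.98% higher than in KS, and 8.09% and 7.92% than in B6. The count against KS was 1 without any 1 array of KS or SJL, where Insig1 was lost (limma adjusted p from 0.0614 to 0.107). Between KS and B6 limma called none (5.71% of all), and 0 of the 8 had an unadjusted p under 0.05 (19.2% of all). Mylip, a ubiquitin ligase that marks lipoprotein receptors for degradation, was at 725 ± 57.3 in SJL, 1122 ± 125 in KS and 1144 ± 64.2 in B6 (-0.62 and -0.65, limma adjusted p = 0.00611 and 0.00451). Insig1, which holds the sterol sensor in the endoplasmic reticulum, was at 10140 ± 95.7 in SJL and 13722 ± 1685 in B6 (-0.43, limma adjusted p = 0.0199, or 0.0666 without SJL replicate 3). Nr1h3, a nuclear receptor known to act on Apoe in macrophages, lay below 16 on all arrays.

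Macrophages are a known source of Apoe and Apoc1, so their markers are given beside the members. Of 20 markers 14 were tested, and 7 lay below 16 on all arrays, among them Adgre1, Ptprc, Cd163 and Cx3cr1. The summed intensity of the 20 lay between 4127 and 5630 in B6, 3437 and 4862 in KS, and 4391 and 5004 in SJL, and so overlapped in every comparison. Of the 14 tested, SJL had 3 markers called higher and 3 lower than KS, where 6.98% and 8.52% of all probe sets were. The lower count was 1 without SJL replicate 3. Against B6, SJL had 2 higher and 3 lower (7.92% and 8.09% of all). The median difference was -0.24 against KS and -0.09 against B6, with 0.02 over all genes tested in each. KS had 1 higher than B6 and 0 lower (2.91% and 2.80% of all), or 1 lower without B6 replicate 2 or KS replicate 2. The KS marker was Aif1, chosen after its values were seen, at 61.9 ± 26.1 in KS against 9.59 ± 1.45 in B6 and 10.9 ± 0.986 in SJL (SD, n = 3). Its B6 and SJL means lay below 16. Aif1 does not stand for the list, since the other 13 tested markers were not called between KS and B6. The median difference there was -0.05, with 0.01 over all genes tested. The sum of 10 keratocyte markers was 60632 to 63750 in SJL, below the 66866 to 76010 of B6 and the 70104 to 78096 of KS. Such separation was not particular to keratocytes. The sum of 8 endothelium markers was 14876 to 17709 in SJL, 18238 to 19878 in KS and 16099 to 19045 in B6. For 10 epithelium markers it was 188984 to 190384 in B6, above the 178694 to 182932 of KS and the 180981 to 187200 of SJL. The retina sum with Glul was 14027 to 15665 in SJL, below the 18697 to 24011 of KS and the 19633 to 19902 of B6. The part of any of these cell types in the Apoe and Apoc1 levels was not tested. In a punch of whole cornea, fewer cells of a type and less RNA per cell cannot be told apart.

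The genes whose levels over the 9 arrays were most like those of Apoe were found by the root mean square distance of log2 values, each centred on its gene's own mean. Among 10955 other genes tested the nearest were Pdyn, the precursor of dynorphin, Isoc2b, Tmie and Il1rn, the antagonist of the interleukin 1 receptor, at distances of 0.33, 0.36, 0.37 and 0.38. Pdyn averaged 1147 ± 149 in KS, 460 ± 53.0 in B6 and 74.6 ± 23.2 in SJL (SD, n = 3). Il1rn averaged 83.0 ± 16.5 in SJL, against 351 ± 0.0911 in B6 and 672 ± 63.1 in KS. The nearest to Apoc1 were Lgals7, which encodes galectin 7, Ifi209, B3galt6 and Pdlim2, at 0.45, 0.53, 0.57 and 0.62, all of them below 16 on each SJL array. None of the 4 was called in KS against B6, where Apoc1 was, and a second Ifi209 probe set differed by only -0.03 in SJL against KS. Apoc1 itself stood 1.33 from Apoe. By this distance Apoc1 ranked 1020 among the 10955 genes for Apoe, and Apoe ranked 32 for Apoc1. The distance takes in the size of the differences, and for Apoc1 in SJL that size depends on the pseudocount. Both genes were highest in KS and lowest in SJL. Likeness by distance is a description over arrays that share strain, and it was chosen for.

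**Figure D4:**
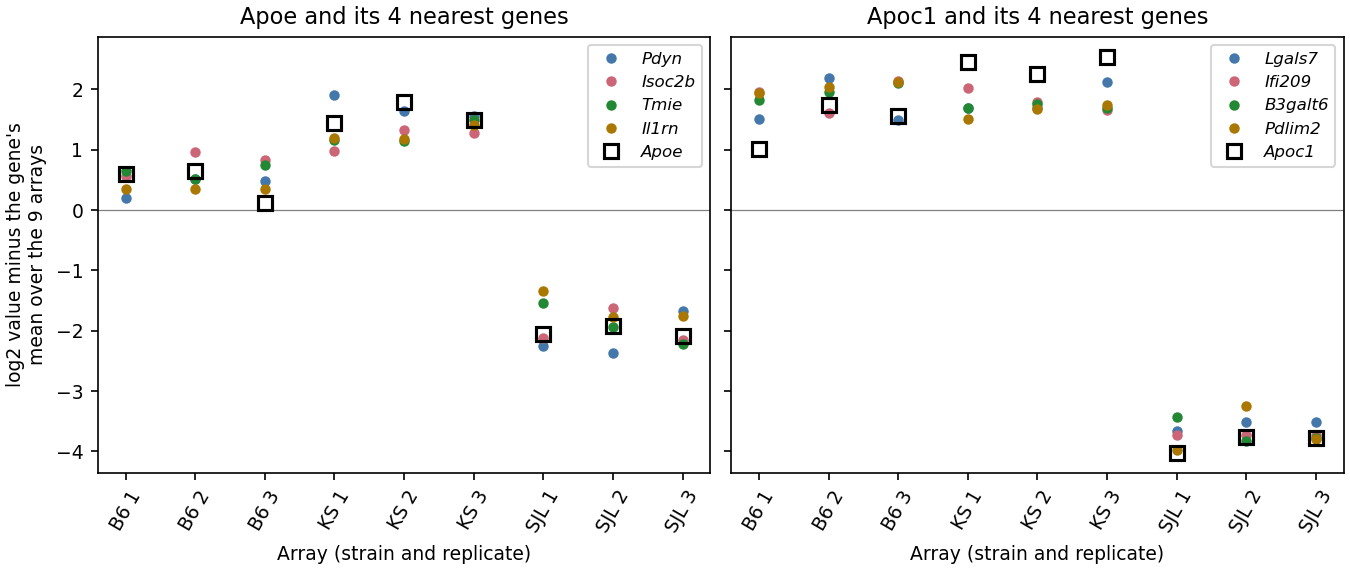
Log2 value minus the gene's own mean over the 9 arrays for Apoe (left) and Apoc1 (right), as squares, and for the 4 genes nearest to each, as points, by strain and replicate. The genes nearest to Apoe share its order of strains, and those nearest to Apoc1 share its low SJL values but not its rise from B6 to KS.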

How the data were processed

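Central cornea of 9 mice was measured on 1-colour Affymetrix arrays, 3 per strain. The authors deposited 1 intensity per probe set, on a linear scale as the values show; no source used here states the summary, background correction or scaling. Array upper quartiles ran from 380 to 396. Arrays have no read depth, and their number limits the precision.

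Of 45101 probe sets 64 controls were left out; 34945 had 1 symbol in the platform annotation, 932 several and 9160 none. Limma 3.58.1 in R 4.3.3 was fitted to log2(intensity + 10) of all 9 arrays with 1 mean per strain, after leaving out probe sets below the median of mean log2 values, which kept 22519. P-values are two-sided and Benjamini-Hochberg adjusted over these. The fit was tested on simulated data. RefSeq tables of GRCm38.p6 gave names, gene order and the promoter windows.

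The members and lists were chosen with earlier results of these data known. Named genes were all members, the 4 genes nearest to each tested member whose strain means spanned at least 1 on the log2 scale, up to 3 called genes of each pathway list with the largest difference, and 4 neighbours on either side of Apoe and Apol6; Apool, Abca1, Lpl, Nr1h3 and other list genes at low signal were added after their values were seen. Alternatives covered filter, pseudocount, normalization, variance prior, arrays fitted, probe set choice, a replicate block and each array left out. Replicate numbers were not taken to pair mice: deviations of same-numbered arrays correlated at -0.27 to 0.26. The labels call the samples separate mice.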

Additional observations from a re-analysis of the deposited data

How the results depend on the processing

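Apoe was called and Clu was not in SJL against KS and in SJL against B6 under all 19 alternatives. In KS against B6 Apoe and Apoc1 were called except with no filter and with only the 6 arrays compared, where 1 of them, Apoe, was called; with 1 array left out 1 to 2 were called. Where an array is left out its strain keeps 2, whose spread is pooled with the others. Fewer arrays and, with no filter, more probe sets enter these fits. With the replicate block Apoe was called in each comparison, and Apoc1 in KS against B6 had an adjusted p of 0.0286. Clu in SJL against KS ranged from -0.07 to 0.01 with 1 array left out. The mean of all Apod probe sets gave -2.36 in SJL against KS and -2.01 in SJL against B6, and that of Nectin2 gave -0.05 in SJL against B6; the means include a probe set of opposite sign. With 1 array left out, differences that were never called ranged from -0.01 to 0.36 for Nectin2 in SJL against B6 and, in KS against B6, from -0.09 to 0.06 for Mylip, -0.11 to 0.05 for Insig1, -0.04 to 0.33 for Lgals7 and -0.23 to 0.04 for Ifi209. Over all probe sets, calls between SJL and KS numbered 3489, or 2101 with the stricter filter and 1431 over genes by the mean of all probe sets. Between SJL and B6 they numbered 3605, or 2156 and 1582, and between KS and B6 1286, or 742 and 666. The last also numbered 838 with no filter, 745 without KS replicate 2 and 823 without KS replicate 3. Signal near the lower end of the scale limits what can be said of Apoc2, Apoa1, Apol6 and Apoc1 in SJL.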
